A study of Schizosaccharomyces pombe 972h- with 4 samples.

Results

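SPAC1F12.10c, SPCC191.04c, meu26 (SPAC6B12.16) and mug150 (SPCC1322.07c) are 4 little-studied genes of the fission yeast Schizosaccharomyces pombe, chosen from the 4997 targets on the array because their hypoxia ratio in wild type cells was low. They were found by systematic name in the gene descriptions of the array. Transcript levels were measured in Ofd2Δ cells, an h- strain in which the gene of the histone H2A dioxygenase Ofd2 is deleted (Ofd2ΔKAN in the methods), after 90 min of hypoxia (below 1% oxygen) and after 90 min in normal oxygen (20%), and in wt h- cells after the same times in hypoxia and in normal oxygen. All 4 cultures were grown to exponential phase in supplemented yeast extract medium with glucose, and no transgene or drug is named for any of them. A condition is 1 sample, namely 1 single-colour NimbleGen array that received the mixed RNA of 2 experiments, so differences between conditions have no replicate check and no test was made.

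When oxygen is scarce fission yeast slows respiration, and it turns on anaerobic genes mainly through the sterol-regulated transcription factor Sre1. Mating and meiosis begin when nitrogen runs out. The names meu (meiotic expression upregulated) and mug (meiotically upregulated gene) were given to genes whose transcripts were found raised during meiosis, and carrying such a name says little of what the protein does. SPCC191.04c is described on the array as a questionable open reading frame and mug150 as very hypothetical, meaning that it was doubted whether a protein is made from them. SPAC1F12.10c is described by its similarity to another fission yeast protein, SPCC330.03c, which carries the description of a hypothetical heme binding protein. The description of meu26 names no function.

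Each gene was measured by 7 probes of 60 bases, spotted once in each of 2 blocks of the array, which makes 14 spots. The probes do not sample the genes evenly. In SPAC1F12.10c 6 of the 7 probes start between bases 26 and 45 of the target and share most of their sequence, and the other starts at base 313. In SPCC191.04c 6 start between bases 3 and 26 and the other at base 251. In mug150 5 overlapping probes start between bases 137 and 198, with single probes at 44 and 260, while the probes of meu26 are spread from base 166 to base 955. The 14 spots of a gene therefore repeat a few stretches of sequence, and their spread is technical.

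The 4 arrays differed in brightness. The median gene spot was 4009 on the Ofd2Δ hypoxia array, 6597 on the Ofd2Δ normal oxygen array, 7045 on the wt hypoxia array and 7529 on the wt normal oxygen array. The Ofd2Δ hypoxia array was also scanned on a separate occasion from the other 3, so any difference between that array and another cannot be told apart from the scan. The 95th percentile of the 2083 control spots, which match no gene, was between 145 and 158 on the 4 arrays. No target is paired with ofd2 in the tables used, so the deletion was not checked here. Because whole cultures were measured, less RNA of a gene per cell and fewer cells that make it cannot be told apart.

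Relative to normal oxygen, all 4 genes were lower in hypoxia in both strains, meu26 the most and mug150 the least in wt. The order of meu26 and SPAC1F12.10c depended on the processing. The hypoxia ratio, the level in hypoxia over the level in normal oxygen after background correction and quantile normalisation, was 0.191 in Ofd2Δ and 0.270 in wt for meu26. For SPAC1F12.10c it was 0.320 in Ofd2Δ and 0.294 in wt. For SPCC191.04c it was 0.664 in Ofd2Δ and 0.379 in wt. For mug150 the ratio was 0.624 in Ofd2Δ and 0.552 in wt, above 0.5 in both strains.

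The wt ratios chose the 4 genes, and their low values are a description. A ratio of at most 0.5 was found for 3 of the 4 genes in wt, where 0.64% of all targets (32 of 4997) passed that limit, and for 4 of the 4 it was at most 1/1.5, as for 2.28% of all targets. Nothing is read from these counts. The Ofd2Δ arrays were not used for the choice, but they give no independent support. Of the 32 targets at or below 0.5 in wt, 23 were so in Ofd2Δ too. The counts that follow are therefore also a description. There 2 of the 4 genes, SPAC1F12.10c and meu26, had a ratio of at most 0.5, where 0.981% of all targets (49 of 4997) did. Both were also at or below 0.5 in wt, a pattern that 0.46% of all targets (23 of 4997) showed. All 4 genes were at or below a ratio of 1/1.5 in Ofd2Δ cells, where 2.8% of all targets (140 of 4997) were. For SPAC1F12.10c and meu26 this held in 9 of 9 other ways of processing the values. It held in only 3 of 9 for SPCC191.04c, whose ratio then ran from 0.422 to 0.857, and in 4 of 9 for mug150, from 0.498 to 0.814, so for these 2 genes the count depends on the processing. The rank in Ofd2Δ, counted from the lowest ratio of all targets, was 2 for meu26, 11 for SPAC1F12.10c, 103 for mug150 and 139 for SPCC191.04c.

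**Figure D1:**
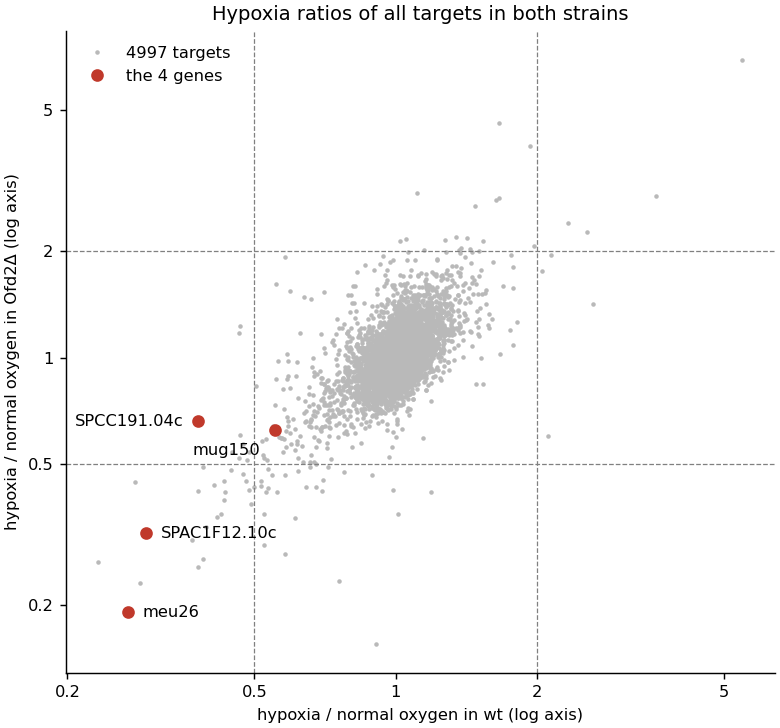
Hypoxia ratio in Ofd2Δ cells (y axis) against that in wt cells (x axis), both on log axes, for 4997 targets (grey) and the 4 genes (red). Dashed lines mark ratios of 0.5 and 2, and meu26 and SPAC1F12.10c are the 2 of the 4 genes below 0.5 in both strains.

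The level of a target bears on these counts. Ranked by mean normalised intensity over the 4 arrays, which also depends on the probes, mug150 stood at the 3.80th, SPCC191.04c at the 4.42nd and meu26 at the 6.46th percentile of all targets, and SPAC1F12.10c at the 51.8th. Among the 1249 targets under the 25th percentile, which hold 3 of the 4 genes, 2.32% had a ratio of at most 0.5 in Ofd2Δ and 1.68% in wt, and 5.44% had one of at most 1/1.5 in Ofd2Δ, higher shares than among all targets. A filter on low levels set at that percentile would leave SPAC1F12.10c alone of the 4.

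SPAC1F12.10c, the 1 gene of the 4 above the 25th percentile of level, had the most even spot ratios of the 4 over all 14 spots. The SD of its log2 spot ratios was 0.407 in Ofd2Δ and 0.186 in wt. In wt mug150 had 0.181 once its 1 spot under the control level was left out. The 14 spots of SPAC1F12.10c as deposited had a lowest, median and highest intensity of 1934, 2666.5 and 3960 on the Ofd2Δ hypoxia array. On the Ofd2Δ normal oxygen array they had 10033, 12536 and 15713. They had 2945, 4222 and 4956 on the wt hypoxia array, and 9614, 14334 and 15634 on the wt normal oxygen array. In each strain the brightest hypoxia spot was dimmer than the dimmest normal oxygen spot, and every spot was far above the control spots.

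The 2 blocks gave SPAC1F12.10c ratios of 0.339 and 0.300 in Ofd2Δ and of 0.296 and 0.292 in wt. The single spots ranged from 0.220 to 0.562 in Ofd2Δ and from 0.239 to 0.377 in wt, and 14 of 14 were below 1 in either strain. The probe at base 313, which shares no sequence with the other 6, had a ratio of 0.272 in Ofd2Δ and of 0.335 in wt, so both stretches of the gene showed the lower level. A long non-coding RNA of the RefSeq annotation, SPNCRNA.3700, overlaps the span of SPAC1F12.10c, and whether the labelling kept the strand is not given in the sources used here.

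SPCC330.03c, the protein relative named in the description of SPAC1F12.10c, also had lower levels in hypoxia, with ratios of 0.755 in Ofd2Δ and 0.641 in wt. Its blocks gave 0.839 and 0.671 in Ofd2Δ and 0.636 and 0.647 in wt. The median of its 14 spots was 782.5 on the Ofd2Δ hypoxia array, 1500 on the Ofd2Δ normal oxygen array, 1175 on the wt hypoxia array and 2010 on the wt normal oxygen array. It did not reach a ratio of 0.5 in either strain, and in the deposited value table its Ofd2Δ ratio was 1.02 and its wt ratio 0.642.

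By the ratios given above, meu26 had the lowest ratio of the 4 genes in both strains. Its 14 spots had a lowest, median and highest intensity of 187, 444.5 and 796 on the Ofd2Δ hypoxia array, and of 1082, 1907 and 2701 on the Ofd2Δ normal oxygen array. They had 357, 827 and 1033 on the wt hypoxia array, and 1825, 2731 and 4049 on the wt normal oxygen array. As for SPAC1F12.10c, hypoxia and normal oxygen spots did not overlap within a strain, although the dimmest hypoxia spot in Ofd2Δ came close to the control spots. The block ratios were 0.179 and 0.203 in Ofd2Δ and 0.278 and 0.261 in wt. Under other background settings SPAC1F12.10c had the lower ratio. In wt it had 0.303 without background correction, where meu26 had 0.322, and 0.301 with normexp, where meu26 had 0.308. With a background fitted on gene spots only, SPAC1F12.10c had 0.268 in Ofd2Δ and 0.243 in wt. There meu26 had 0.315 in Ofd2Δ and 0.339 in wt.

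The probes of meu26 do not share one stretch, and each of them was lower in hypoxia in both strains. The ratios of the 7 probes ran from 0.0735 to 0.336 in Ofd2Δ and from 0.146 to 0.338 in wt. The probe at base 166 had 0.336 in Ofd2Δ and 0.328 in wt. The probe at base 955, the last one, had the lowest ratio in both strains, 0.0735 in Ofd2Δ and 0.146 in wt.

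That last probe was close to the control spots in hypoxia. Its 2 spots as deposited were 209 and 187 on the Ofd2Δ hypoxia array, against 1218 and 1233 on the Ofd2Δ normal oxygen array. On the wt arrays they were 417 and 357 in hypoxia, against 2122 and 1825 in normal oxygen. Taken as deposited, with no correction and no scaling of the arrays, the spot ratios were 0.172 and 0.152 in Ofd2Δ and 0.197 and 0.195 in wt. By these values too the probe was lower in hypoxia, by a smaller factor. They also carry the brightness of the arrays, the Ofd2Δ hypoxia array being the dimmest. The effect of the background correction alone therefore cannot be read from them. The RefSeq span of meu26 is overlapped by the long non-coding RNA SPNCRNA.827.

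**Figure D2:**
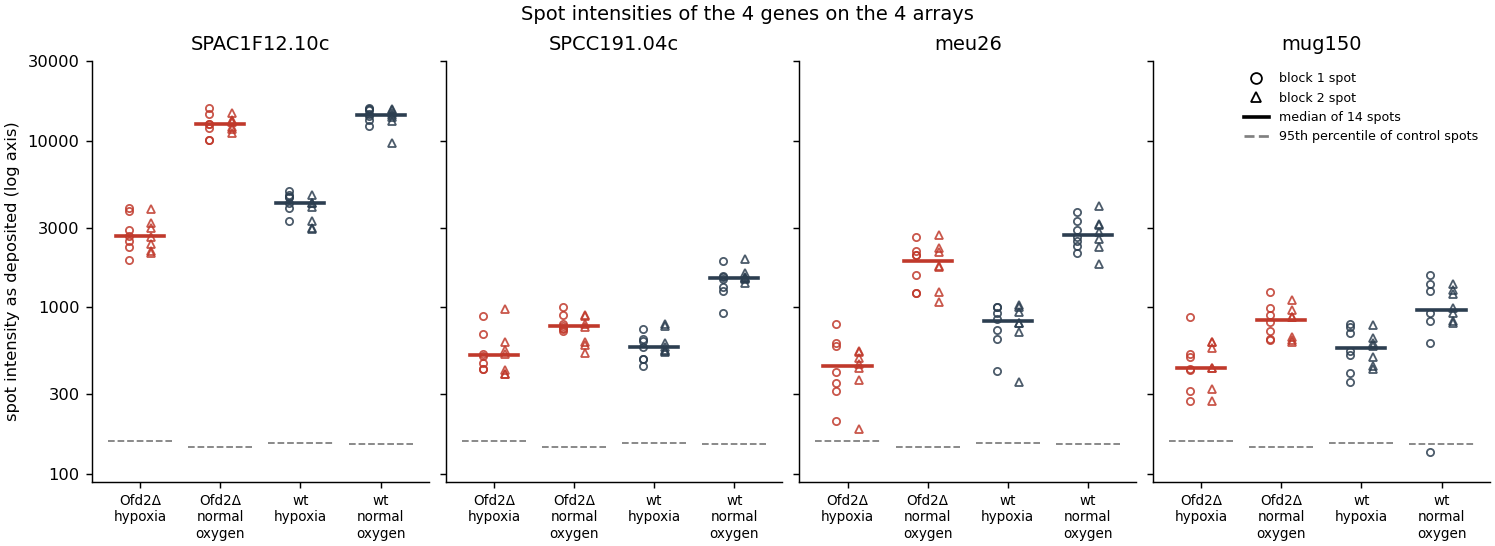
Intensity of each of the 14 spots of each gene as deposited (y axis, log), on the Ofd2Δ hypoxia, Ofd2Δ normal oxygen, wt hypoxia and wt normal oxygen arrays, with the median of the 14 spots as a bar and the 95th percentile of the control spots as a dashed line. Spots of SPAC1F12.10c and meu26 separate by oxygen in both strains, those of SPCC191.04c in wt only, and 1 spot of mug150 lies below the control line.

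SPCC191.04c was lower in hypoxia in wt on every spot, and by the probes less so in Ofd2Δ. Its 14 spots had a lowest, median and highest intensity of 396, 517.5 and 974 on the Ofd2Δ hypoxia array, and of 533, 770 and 1007 on the Ofd2Δ normal oxygen array. They had 445, 575 and 789 on the wt hypoxia array, and 925, 1499 and 1951 on the wt normal oxygen array. The wt normal oxygen spots were all above the wt hypoxia spots, whereas the spots of the 2 Ofd2Δ arrays overlapped each other and reached into the range of the wt normal oxygen spots.

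After normalisation 11 of 14 spots of SPCC191.04c were below 1 in Ofd2Δ and 14 of 14 in wt. The block ratios were 0.620 and 0.707 in Ofd2Δ and 0.368 and 0.391 in wt. The 2 stretches of the gene differed in Ofd2Δ. The 6 overlapping probes near the start had a median spot ratio of 0.678 in Ofd2Δ and of 0.364 in wt. The probe at base 251 had a ratio of 1.57 in Ofd2Δ, with 1.56 and 1.58 in the blocks, and of 0.519 in wt. Of the 2 stretches measured, the later one was therefore higher in hypoxia in Ofd2Δ and lower in wt, and this rests on 1 probe.

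mug150 was the least lowered of the 4 in wt. Its 14 spots had a lowest, median and highest intensity of 275, 432.5 and 877 on the Ofd2Δ hypoxia array, and of 619, 844 and 1228 on the Ofd2Δ normal oxygen array. They had 358, 567.5 and 791 on the wt hypoxia array, and 135, 962 and 1559 on the wt normal oxygen array. The groups overlapped in both strains. The block ratios were 0.551 and 0.698 in Ofd2Δ and 0.557 and 0.547 in wt.

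Spot by spot, 14 of 14 were below 1 in Ofd2Δ and 13 of 14 in wt. The exception in wt was the block 1 spot of the probe at base 182, which had 546 in hypoxia and 135 in normal oxygen, under the control percentile of 152 on that array. Its ratio after correction was 12.6, whereas the same probe in block 2 had 0.633. The median polish used for the gene level gives such a spot little weight. A plain mean over the probes gave a ratio of 0.542 in Ofd2Δ and of 0.689 in wt, which turns the order of the strains for mug150 round.

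**Figure D3:**
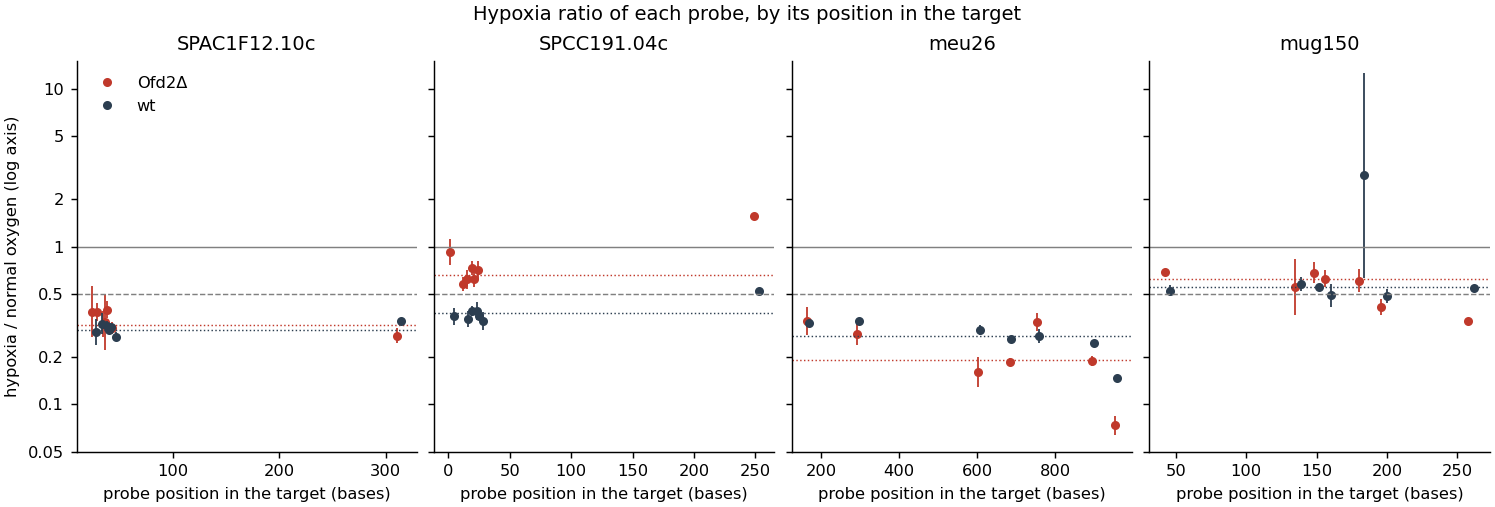
Hypoxia ratio of each probe (y axis, log) by its start in the target in bases (x axis), for Ofd2Δ (red, drawn 2 bases to the left) and wt (dark, drawn 2 bases to the right). Points are the geometric mean of the 2 blocks, vertical lines join the 2 blocks, dotted lines are the gene's ratio, and the dashed line is 0.5. All probes of meu26 and SPAC1F12.10c lie below 0.5, and the last probe of SPCC191.04c lies above 1 in Ofd2Δ alone.

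Between the strains, 1 gene of the 4 was past the 1.5-fold limit of the study in each oxygen condition, and it was not the same one. The limit was passed downwards by 0.68% of all targets in hypoxia (34 of 4997) and by 0.22% in normal oxygen (11 of 4997), and among targets under the 25th percentile of level by 1.52% in hypoxia and 0.801% in normal oxygen. In hypoxia the Ofd2Δ level of meu26 was 0.550 of the wt level, with 0.488 and 0.613 in the blocks and 13 of 14 spots below 1. In normal oxygen it was 0.773 of the wt level, with 0.759 and 0.788 in the blocks. The wt arrays of this comparison also served to choose the genes. A choice by low wt hypoxia ratios favours low values of this comparison in normal oxygen and high ones in hypoxia.

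SPCC191.04c was lower in Ofd2Δ cells in normal oxygen, at 0.613 of the wt level, and rank 7 from the lowest of all targets. The wt normal oxygen array that divides this value also divides the wt ratio that chose SPCC191.04c, so nothing is read from the rank. Its block ratios were far apart, 0.733 and 0.494, and only the second was past the limit. On the single spots 13 of 14 were below 1. In hypoxia the Ofd2Δ level was 1.07 of the wt level, with 1.24 and 0.894 in the blocks, on either side of 1. This hypoxia value, like that of meu26, rests on the array that was scanned apart.

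The other genes differed less between strains. For SPAC1F12.10c the Ofd2Δ level was 1.06 of the wt level in hypoxia and 0.977 in normal oxygen. For mug150 it was 1.11 in hypoxia and 0.982 in normal oxygen. In both genes 1 pair of block values lay on either side of 1, those of normal oxygen for SPAC1F12.10c (0.913 and 1.04) and those of hypoxia for mug150 (0.976 and 1.25).

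**Figure D4:**
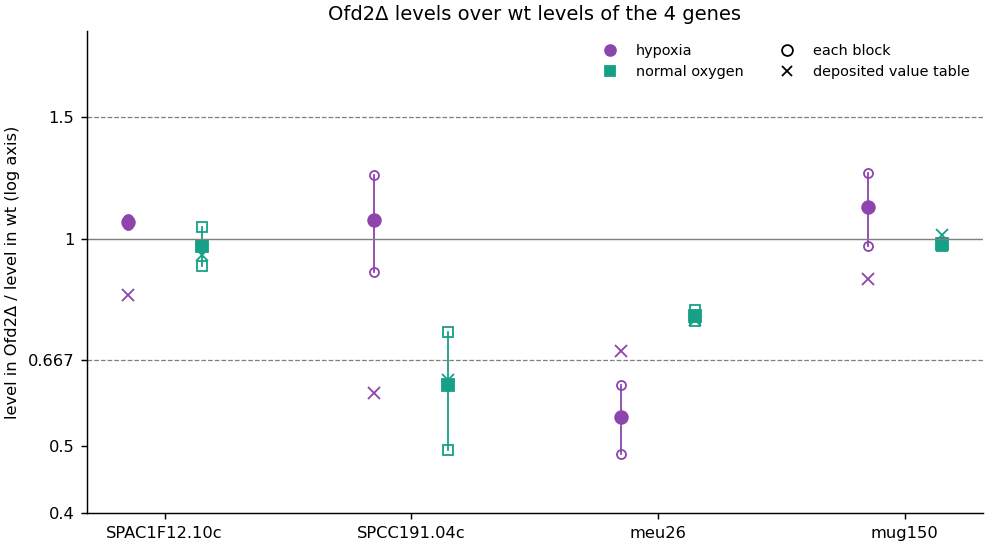
Level in Ofd2Δ over the level in wt (y axis, log) in hypoxia (circles) and normal oxygen (squares) for the 4 genes; open marks are the 2 blocks, filled marks their mean and crosses the deposited value table. Dashed lines mark 1.5-fold, which meu26 passes downwards in hypoxia and SPCC191.04c in normal oxygen.

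Set as a ratio of ratios, the hypoxia ratio in Ofd2Δ was 1.75 times that in wt for SPCC191.04c, with 1.69 and 1.81 in the blocks. The wt ratio that divides it chose the genes for being low, which favours high values here, so nothing is read from the counts. A value of at least 1.5 was found for 1 of the 4 genes, where 1.94% of all targets (97 of 4997) had one, and 5.6% of the targets under the 25th percentile of level. It was 1.13 for mug150, 1.09 for SPAC1F12.10c and 0.708 for meu26. A value of at most 1/1.5 was found for 0 of the 4 genes, where 0.66% of all targets had one, and block 1 of meu26 alone gave 0.642.

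For SPCC191.04c the deposited value table, which the study used, gave another picture in Ofd2Δ. There the hypoxia ratio was 0.422 in Ofd2Δ and 0.430 in wt, and the ratio of ratios 0.982. The values of its 2 rows were 249 and 237 on the Ofd2Δ hypoxia array, 689 and 491 on the Ofd2Δ normal oxygen array, 418 and 397 on the wt hypoxia array, and 928 and 970 on the wt normal oxygen array. By that table the Ofd2Δ level in hypoxia was 0.596 of the wt level, against 1.07 from the probes, while the values in normal oxygen were close, 0.624 by the table and 0.613 from the probes. Of the 4 arrays, the one on which the 2 sources part most is the Ofd2Δ hypoxia array.

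The same table gave meu26 ratios of 0.263 in Ofd2Δ and 0.287 in wt, and an Ofd2Δ level in hypoxia of 0.686 of the wt level, which is within 1.5-fold. It gave SPAC1F12.10c 0.371 in Ofd2Δ and 0.426 in wt. It gave mug150 0.498 in Ofd2Δ, just past the 0.5 limit, and 0.576 in wt. The direction in hypoxia was therefore the same for the 4 genes in both sources and both strains, and the order of the strains was not for SPAC1F12.10c, SPCC191.04c and mug150. For SPCC191.04c in Ofd2Δ the direction was weak. Its median spot before correction was 0.129 of the median gene spot in hypoxia and 0.117 in normal oxygen, the other way round.

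The protein-coding neighbours of 2 of the 4 genes are paired with targets in the tables used. SPCC191.04c lies on chromosome III between SPCC191.03c and SPCC191.05c. SPCC191.03c, another questionable frame, had hypoxia ratios of 0.821 in Ofd2Δ and 0.708 in wt. SPCC191.05c had 0.751 in Ofd2Δ and 0.702 in wt. The next gene, SPCC191.06, also described as questionable, had 0.643 in Ofd2Δ and 0.744 in wt. All 3 were below 1 in both strains and above SPCC191.04c in wt. In Ofd2Δ, where SPCC191.04c had 0.664, SPCC191.06 was below it and SPCC191.03c and SPCC191.05c above it.

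The third gene on that side is cyc1, which encodes the electron carrier cytochrome c of the respiratory chain. Its ratio was 0.465 in Ofd2Δ and 0.544 in wt from the probes, and 0.151 in Ofd2Δ and 0.244 in wt by the deposited value table. On the other side acs1, which encodes acetyl-CoA synthetase, had 0.955 in Ofd2Δ and 1.01 in wt. The RefSeq spans of SPCC191.06 and cyc1 overlap, as do those of SPCC191.03c and acs1, while no annotated gene overlaps SPCC191.04c.

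The neighbours of mug150 on chromosome III all had higher ratios than mug150. The RefSeq span of mug150 overlaps that of kap113, a karyopherin gene that by its systematic name lies on the other strand, and kap113 had ratios of 0.912 in Ofd2Δ and 1.06 in wt. On the other side srk1, which encodes a protein kinase of the stress pathway, had 0.861 in Ofd2Δ and 0.787 in wt, below 1 in both blocks of either strain. The other 4 neighbours, fyu1, lap2, SPCC1322.09 and knh2, had ratios between 0.938 and 1.37 in Ofd2Δ and between 0.855 and 1.17 in wt. The neighbours of SPAC1F12.10c and meu26 on chromosome I are not paired with targets in the tables used and were not analysed here.

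**Figure D5:**
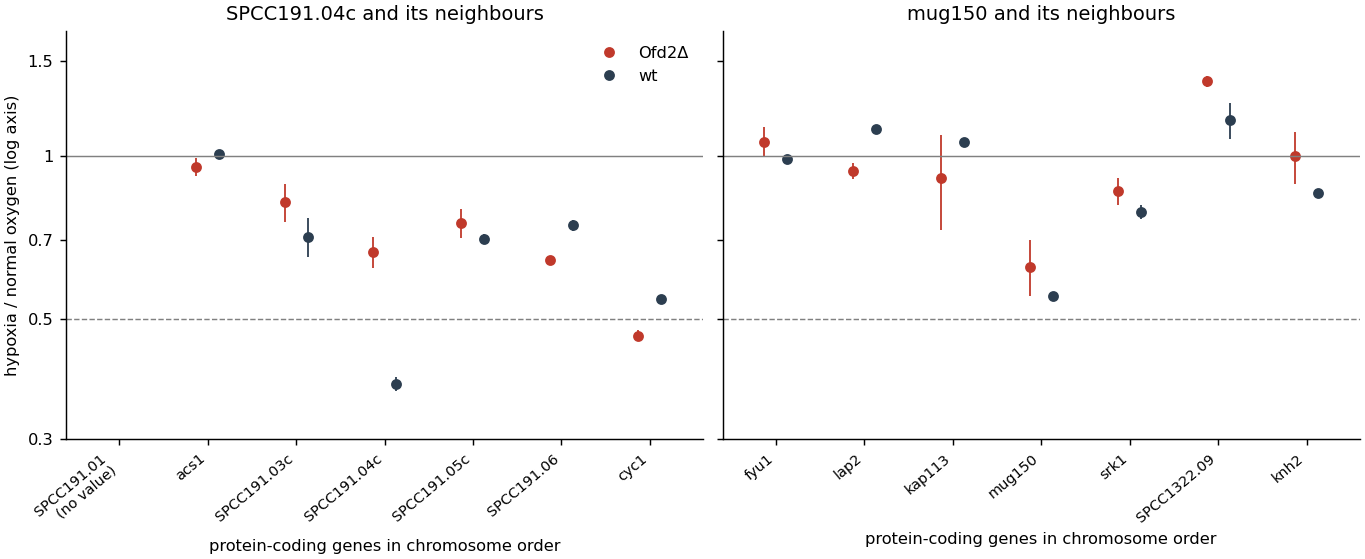
Hypoxia ratios (y axis, log) in Ofd2Δ (red, left of each pair) and wt (dark, right) for SPCC191.04c, mug150 and up to 3 protein-coding genes on either side, in chromosome order (x axis). Points are the mean of 2 blocks and vertical lines join the blocks; the 3 genes on one side of SPCC191.04c, cyc1 among them, are below 1 in both strains, and mug150 is the lowest of its row.

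Likeness of pattern was measured as the distance between the 4 log2 levels of 2 targets, each centred on its mean over the arrays, and was searched among the 1643 targets that carry a name. With only 4 arrays it is a description. The nearest to SPAC1F12.10c were pmp20, which encodes a peroxiredoxin-like protein, at 0.351, nrg1, an amino acid permease by its description, at 0.354, and dak2, a dihydroxyacetone kinase gene, at 0.362. dak2 had hypoxia ratios of 0.265 in Ofd2Δ and 0.233 in wt, its wt ratio being the lowest of all targets.

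The nearest to meu26 was rec15, which encodes a protein needed for meiotic recombination, at a distance of 0.261 and with ratios of 0.231 in Ofd2Δ and 0.286 in wt. Next were SPBC530.02 at 0.512, with 0.269 in Ofd2Δ and 0.388 in wt, and nrg1 at 0.686. The nearest to SPCC191.04c were SPAC16A10.01 at 0.350, SPBC1711.15c at 0.379 and SPCC569.04 at 0.395, the last 2 of them also described as questionable or very hypothetical frames. The ratios of SPBC1711.15c were 0.481 in Ofd2Δ and 0.445 in wt, and its RefSeq span overlaps that of rec15. In hypoxia the Ofd2Δ level of SPCC191.04c was 1.07 of the wt level, against 0.882 to 0.938 for these 3.

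For mug150 the 3 nearest lay much closer, at 0.0498 to 0.0758. They were qcr9, with ratios of 0.595 in Ofd2Δ and 0.564 in wt, rec27, with 0.640 in Ofd2Δ and 0.590 in wt, and qcr8, with 0.587 in Ofd2Δ and 0.579 in wt. qcr8 and qcr9 encode subunits of the ubiquinol-cytochrome c reductase of the respiratory chain, and rec27 a protein of the meiotic linear elements. This likeness rests on the probe values. The deposited value table gave qcr9 0.793 in Ofd2Δ and 0.656 in wt, rec27 1.15 in Ofd2Δ and 0.617 in wt, and qcr8 0.346 in Ofd2Δ and 0.547 in wt, against 0.498 in Ofd2Δ and 0.576 in wt for mug150. Distances to a gene that moved little are small by construction, so they cannot be set against those of meu26. Among the 4 genes the closest pair was SPCC191.04c and mug150 at 0.549 and the farthest meu26 and mug150 at 1.56. Counted among all targets, meu26, SPCC191.04c and mug150 were the 40th, 43rd and 56th nearest to SPAC1F12.10c. From meu26, SPAC1F12.10c was the 6th, SPCC191.04c the 48th and mug150 the 84th nearest. From SPCC191.04c, mug150 was the 34th, SPAC1F12.10c the 274th and meu26 the 4366th nearest. From mug150, SPCC191.04c was the 335th, SPAC1F12.10c the 3834th and meu26 the 4971st nearest. The low wt ratios that chose the genes enter these distances, so nothing is read from the ranks.

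Genes that share a name or a description with the 4 had median hypoxia ratios near 1, and a larger share of low ratios than all targets. Both lists hold 2 of the 4 genes, which were chosen for low ratios, and many targets of low level. How targets got their names bears on these shares too. Of the 1643 named targets 1599 were named through the first of the study's gene tables and the others through further ones. These include lists of genes changed more than 2-fold in hypoxia, so a list of named or described genes may hold extreme ratios by its making. Of the targets with a name, 43 have a meu or mug symbol. Their median hypoxia ratio was 1.01 in Ofd2Δ and 0.978 in wt, beside 1.02 in Ofd2Δ and 1.02 in wt over all targets. A ratio of at most 0.5 was found for 2 of the 43 in Ofd2Δ and for 2 in wt, meu26 and mug37 in either strain, beside 0.981% of all targets in Ofd2Δ and 0.64% in wt. A ratio of at most 1/1.5 was found for 9.30% of the 43 in Ofd2Δ and 11.6% in wt, beside 2.8% of all targets in Ofd2Δ and 2.28% in wt, and 5.44% in Ofd2Δ and 5.20% in wt of those under the 25th percentile of level. Without meu26 and mug150 the median over 41 genes was 1.04 in Ofd2Δ and 0.987 in wt, and 4.88% in Ofd2Δ and 7.32% in wt were at or below 1/1.5. Of these 41 genes 27 were under the 25th percentile of level, and 1 was at or below 0.5 in either strain. Targets under that percentile, without the 4 genes, had 5.22% in Ofd2Δ and 4.98% in wt at or below 1/1.5.

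mug37 had 0.448 in Ofd2Δ and 0.431 in wt. At the other end mug114 had 6.93 in Ofd2Δ and 5.46 in wt, the highest ratio of all targets in each strain, and mug163 had 1.65 in Ofd2Δ and 1.47 in wt. The list thus held one of the lowest and the very highest target of the array, which may follow from how targets were named. Of the 43 genes 29 were under the 25th percentile of level.

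A questionable or very hypothetical frame was named in the descriptions of 50 targets, among them SPCC191.04c and mug150, and 40 of the 50 were under the 25th percentile of level. Their median hypoxia ratio was 1.09 in Ofd2Δ and 1.02 in wt. A ratio of at most 0.5 was found for 2 of the 50 in Ofd2Δ and 3 in wt, beside 0.981% of all targets in Ofd2Δ and 0.64% in wt, and 2.32% in Ofd2Δ and 1.68% in wt of those under the 25th percentile of level. A ratio of at most 1/1.5 was found for 7 of the 50 in either strain, a larger share than those given above for all targets and for targets under the 25th percentile of level. Between the strains in normal oxygen, 2 of the 50 were at or below 1/1.5, SPCC191.04c being the lowest at 0.613. The shares were 0.22% of all targets and 0.801% of those under the 25th percentile of level. Without SPCC191.04c and mug150 it was 1 of 48, or 2.08%. The wt normal oxygen array also served to choose SPCC191.04c, so nothing is read from this count.

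The lowest of these 50 in Ofd2Δ was mic26, which encodes a subunit of the mitochondrial MICOS complex, with 0.355 in Ofd2Δ and 0.415 in wt. The highest in wt were SPCC4F11.05, with 1.95 in Ofd2Δ and 2.14 in wt, and adh8, with 1.08 in Ofd2Δ and 1.77 in wt. adh8 entered the list only because its description compares it with a very hypothetical protein, and mic26 and rec27 have since received gene names. Without SPCC191.04c and mug150 the median over 48 targets was 1.09 in Ofd2Δ and 1.02 in wt, and 10.4% were at or below 1/1.5 in either strain. The shares were not tested, 2 of the 4 genes are in each list, and the naming of targets bears on both lists.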

How the data were processed

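Single-channel (Cy3) spot intensities were used as the authors deposited them, extracted with NimbleScan 2.4.31, before any background correction or normalisation. The RMA convolution background was fitted on all spots and subtracted, control spots were dropped, and the 4 arrays were quantile-normalised. The log2 values of each target and block were then summarised by median polish (R 4.3.3, limma 3.58.1, Python 3.11.15, numpy 2.4.6, pandas 2.3.3). Ratios are means of the 2 block ratios. The deposited value table, in intensity on a linear scale, served as an alternative. RMA without a version is named in the submitters' processing notes, and its scaling is otherwise unknown. Column medians are 5726 and 5379 for Ofd2Δ in hypoxia and normal oxygen and 5440 and 5447 for wt. Its rows were matched to targets by sorted order (r of 0.982 to 0.996 with the summarised log2 values). The steps were run on data simulated from the wt normal oxygen array alone, with all arrays of like brightness. That run therefore says nothing about the dimmer Ofd2Δ hypoxia array.

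The 4 genes and the gene lists were chosen with earlier results of these data known. Genes named in the text are the 4, their 3 protein-coding neighbours on either side, the relative SPCC330.03c, the 3 named targets nearest in pattern, and the 2 lowest and 2 highest of each list in wt. Of 4997 targets 1643 carry a systematic name in the study's gene tables, which were held in part. Of these names 1615 were found in the RefSeq gene table (ASM294v3), which gave symbols and gene order only. The build of the array design is not given in the sources used here. Promoter and protein sequences were not analysed here.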

Additional observations from a re-analysis of the deposited data

How the results depend on the processing

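Each value was recomputed with arrays scaled to a common median, no background correction, normexp with an offset of 50, a mean of the probes, each strain normalised alone, each block alone, the deposited value table and, chosen after seeing the data, a background fitted on gene spots only. Of 172 recomputed ratios of the 4 genes 11 crossed their limit (0.5 for hypoxia ratios, 1.5-fold between strains), 0 of them for SPAC1F12.10c. Shifts were set against the spread of single spots, which is a lenient measure for mug150: its SD of the log2 wt ratio was 1.23 over 14 spots and 0.181 without the 1 spot under the control level. In the deposited value table the Ofd2Δ hypoxia ratio of SPCC191.04c was 0.422, its ratio of ratios 0.982, on the other side of 1, and its Ofd2Δ level in hypoxia 0.596 of the wt level, and the wt hypoxia ratio of SPAC1F12.10c was 0.426. With the background fitted on gene spots only, the wt ratio was 0.243 for SPAC1F12.10c and 0.511 for SPCC191.04c, and the Ofd2Δ level of meu26 in hypoxia was 0.749 and that of SPCC191.04c in normal oxygen 0.682 of the wt level, both within 1.5-fold. Without background correction the wt ratio of SPCC191.04c was 0.453. With arrays scaled to a common median the ratio of ratios of SPCC191.04c was 2.41 and that of mug150 1.60, past 1.5, and the median ratio of the questionable frames was 1.32 in Ofd2Δ and 0.930 in wt. In that setting the Ofd2Δ hypoxia ratio was 0.857 for SPCC191.04c and 0.814 for mug150, neither at or below 1/1.5. Once the dimmest targets, those below the 25th percentile, were dropped, 20 targets stood at or below 0.5 in Ofd2Δ, in place of 49, and 11 in wt, in place of 32. The cause of these shifts was not tested.

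SPAC1F12.10c and meu26 stayed at or below 0.5 in both strains in every setting run. No paired analysis was possible because each condition has 1 sample. The number of arrays limits the precision, and for SPCC191.04c, meu26 and mug150 so does a hypoxia signal of 3.86 to 6.56 times the median control spot.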
